A study of Acacia koa with 4 samples.

Results

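Receptor-like kinases are membrane proteins with an outer domain that binds a ligand or a wall polymer and an inner kinase domain that passes the signal on by phosphorylation. They form one of the largest protein families of plants and act in growth, defence and symbiosis, and wall-associated kinases among them bind pectin in the cell wall. In Arabidopsis, the receptor kinase FERONIA is needed for responses to mechanical strain. Receptor-like and wall-associated kinases were taken here from the descriptions of similar proteins that the array files attach to each transcript, by search terms for receptor kinases, receptor-like proteins, wall-associated proteins, leucine-rich repeat kinases and lectin kinases. This gave 169 of the 4000 transcripts on the array. The search left out 18 further matches, of which 14 were described as LysM receptor kinases and 4 as calmodulin-binding receptor-like proteins.

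The stressed samples were Acacia koa seedlings, a leguminous tree, whose stems had been bent by hand in several compass directions with no wound made, and the unstressed samples were seedlings that were not bent. Each group held 2 pools of about 20 seedlings, described as biological replicates, and each pool was hybridised to 1 array of 1 colour. Seedlings were ground for RNA, so a value averages over all organs in a pool, and fewer cells of a type cannot be told apart from less RNA per cell. The transcripts described as a chlorophyll A/B binding protein (A61) and as photosystem II PsbR (A73), markers of green tissue, lay between 14.83 and 15.95 on the log2 intensity scale on every array. A61 stood at 15.91 to 15.95, close to the highest intensities in the data, where a change may be understated. Median intensities of all transcripts were 991 and 1018 on the stressed arrays and 981 and 1010 on the unstressed arrays.

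All 169 descriptions contained the word kinase, and 47 of them were distinct. The 169 transcripts were matched to 83 different proteins, and 125 shared their most similar protein with at least 1 other member. Such transcripts may be near relatives that cross-hybridise, and their values are then not separate measurements. No koa sequence was used here, so the descriptions were not checked against kinase or ligand-binding domains.

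Among the 169 receptor kinase transcripts, 1 rose in stressed pools, the lectin kinase A37198, and 0 fell. A transcript was called where its limma adjusted p, taken over all 4000 transcripts, was under 0.05. Of all transcripts, 0.925% were called higher and 0.0250% lower. At an unadjusted p under 0.05, 7 members differed, 5 higher and 2 lower in stressed pools, which is 4.14% of the members against 5.50% of all transcripts. The difference reached 2-fold in 1 member, which is 0.592%, against 1.52% of all transcripts.

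The median log2 difference (stressed minus unstressed) over the 169 members was −0.06, against −0.04 over all transcripts. Without unstressed replicate 1 the members' median was −0.03, and without unstressed replicate 2 or without stressed replicate 1 that of all transcripts was −0.02 or −0.03. Quartiles stood at −0.18 and 0.09 for the members and at −0.15 and 0.07 for all transcripts. A negative difference was found in 101 members, which is 59.8%, against 60.8% of all transcripts. The plot of members among all transcripts shows this band, with A37198 standing clear of it.

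**Figure D1:**
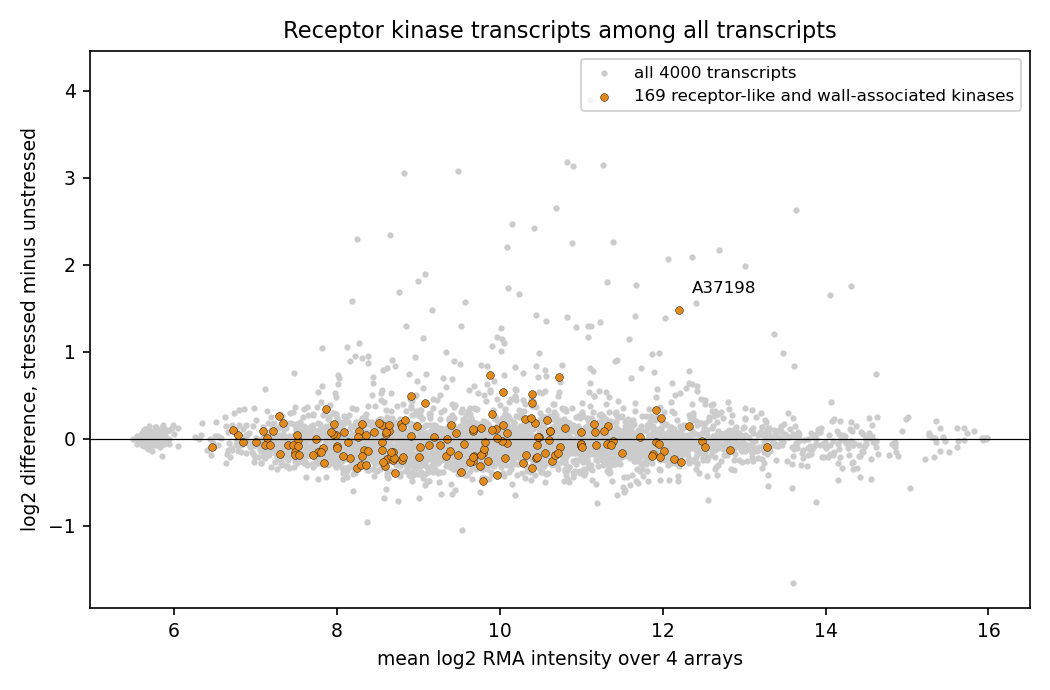
The log2 difference between stressed and unstressed pools is plotted against the mean log2 RMA intensity over the 4 arrays for all 4000 transcripts (grey) and the 169 receptor-like and wall-associated kinases (orange). The labelled point is A37198 at 1.49, and the other members lie between −0.48 and 0.73.

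A member is described below as separated where both stressed values lay above, or both below, both unstressed values. The stressed values lay above in 21 members, which is 12.4%, against 12.0% of all transcripts. They lay below in 35 members, which is 20.7%, against 19.5% of all transcripts. In the remaining 113 members the groups overlapped, as they did in 2741 of all 4000 transcripts. With 2 pools a group the smallest two-sided p of an exact permutation test is 0.333, so separation is a description and not a test.

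A37198 was described as a member of the lectin protein kinase family, receptors with a sugar-binding outer domain, one of which senses extracellular ATP in Arabidopsis. Its log2 intensity was 12.89 and 13.00 in the stressed pools, against 11.66 and 11.26 in the unstressed pools. Both stressed pools were high, and the dimmer of them lay 1.23 above the brighter unstressed pool. The transcript was 2.80-fold higher in stressed pools (95% confidence interval 2.05 to 3.82, limma adjusted p = 0.042), with means of 12.95 ± 0.08 in stressed and 11.46 ± 0.28 in unstressed pools (SD, n = 2 each). It ranked 37 of 4000 by p and 34 of 4000 by the size of its positive difference. The call lay close to the threshold and was lost after quantile normalization (limma adjusted p = 0.067), after centring each array on its median (0.056), with 50 added to each intensity (0.066) and when the array of stressed replicate 2 (0.29), stressed replicate 1 (0.26) or unstressed replicate 2 (0.062) was left out. Over these and the other normalizations, filters and left-out arrays its adjusted p ran from 0.017 to 0.29. The difference itself was 1.29 to 1.68 in the fits that left out 1 array.

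The lectin class held 20 transcripts, with 11 positive and 9 negative differences and a class median of 0.03. Apart from A37198 none was called, and no other had an unadjusted p under 0.05. Its next smallest p belonged to the lectin kinase A286194, with log2 intensities of 8.47 and 8.41 in stressed pools, against 8.74 and 8.67 in unstressed pools (log2 difference −0.26, limma adjusted p = 0.99). This transcript thus lay on the other side of zero from A37198. In the 9 transcripts described as lectin-like receptor kinase 7;2, which share 1 most similar protein, differences ran from −0.25 to 0.34. The groups overlapped in 8 of the 9, against 2741 of all 4000 transcripts. In the 5 described as S-locus lectin kinases the differences ran from −0.09 to 0.17.

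**Figure D2:**
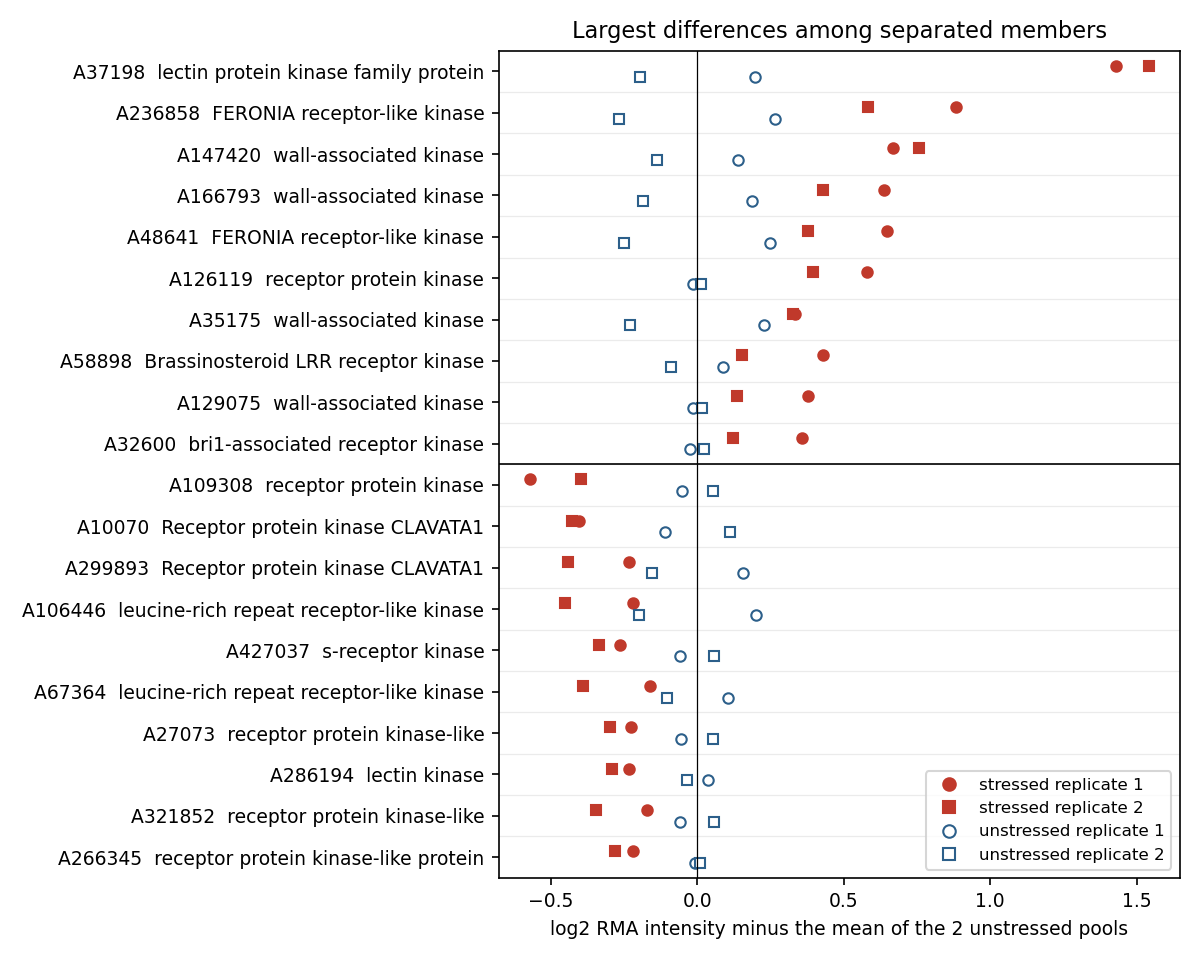
Each row is 1 transcript, and points are log2 RMA intensities of the 4 pools relative to the mean of the 2 unstressed pools (filled red stressed, open blue unstressed, circle replicate 1, square replicate 2). The upper 10 rows are the largest positive and the lower 10 the largest negative differences among separated members, and apart from A37198 all lie within 1 log2 unit of zero.

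Wall-associated kinases, which bind pectin and span the plasma membrane, made up 21 of the members, and limma called none. Their log2 differences ran from −0.28 to 0.71 with a median of −0.01, with 10 positive and 11 negative (18 and 3 without unstressed replicate 1). That median turned on single arrays, at −0.09 or 0.13 when stressed replicate 1 or 2 was dropped, and at 0.15 or −0.13 when unstressed replicate 1 or 2 was dropped. Both stressed values lay above both unstressed values in 6 of them and below in 1, against 12.0% and 19.5% of all transcripts. An unadjusted p under 0.05 was found for 2, A147420 and A166793, against 5.50% of all transcripts.

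A147420 had log2 intensities of 11.04 and 11.13 in stressed pools, against 10.51 and 10.24 in unstressed pools. The 2 stressed pools lay close together and above both others. The transcript was 1.64-fold higher (1.26 to 2.13), at a limma adjusted p of 0.24, so it did not pass the threshold. In A166793 the stressed pools stood at 10.41 and 10.21, against 9.96 and 9.59 in the unstressed pools, with a log2 difference of 0.53 ± 0.18 (SE, limma adjusted p = 0.71). These groups did not overlap either, but the unstressed pools lay 0.37 apart, more than the 0.24 between the lower stressed and the higher unstressed pool.

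The other wall-associated kinases with separated groups and positive differences were A35175 (0.33), A129075 (0.26), A45491 (0.22) and A151010 (0.19). A35175 stood at 12.08 in both stressed pools, against 11.98 and 11.52 in unstressed pools, and without unstressed replicate 2 its difference was 0.10. The levels of A129075 were 7.55 and 7.30 in stressed pools, against 7.15 and 7.18 in unstressed pools. The groups lay close together in both, and each of these 4 transcripts had a limma adjusted p of 0.99. The transcript with the stressed pools below was A221127, at 9.96 and 9.95 in stressed pools, against 10.36 and 9.995 in unstressed pools (−0.22, or −0.04 without unstressed replicate 1, limma adjusted p = 0.99). A296797 had a larger positive difference (0.41), but its groups overlapped, with 8.98 and 9.59 in stressed pools, against 9.15 and 8.60 in unstressed pools. The remaining 13 wall-associated kinases also had overlapping groups and lay between −0.28 and 0.16.

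The 21 wall-associated transcripts were matched to 3 proteins, and this split was made after their values were seen. The 5 matched to the protein of A147420 all had positive differences, from 0.16 to 0.71 with a median of 0.26. Of the 7 matched to the protein of A166793, 4 were positive and 3 negative, from −0.19 to 0.53. Of the 9 matched to the third protein, 8 were negative and 1, A151010, was positive, from −0.28 to 0.19. The set of A147420 had 5 positive differences of 5 in each fit that left out 1 array, with a median of 0.14 without stressed replicate 1, whereas the set of 9 had 7 positive and 2 negative without unstressed replicate 1, and the set of 7 then had 6 positive and 1 negative. The difference between these sets was not tested, and the values of a set may not be independent.

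**Figure D3:**
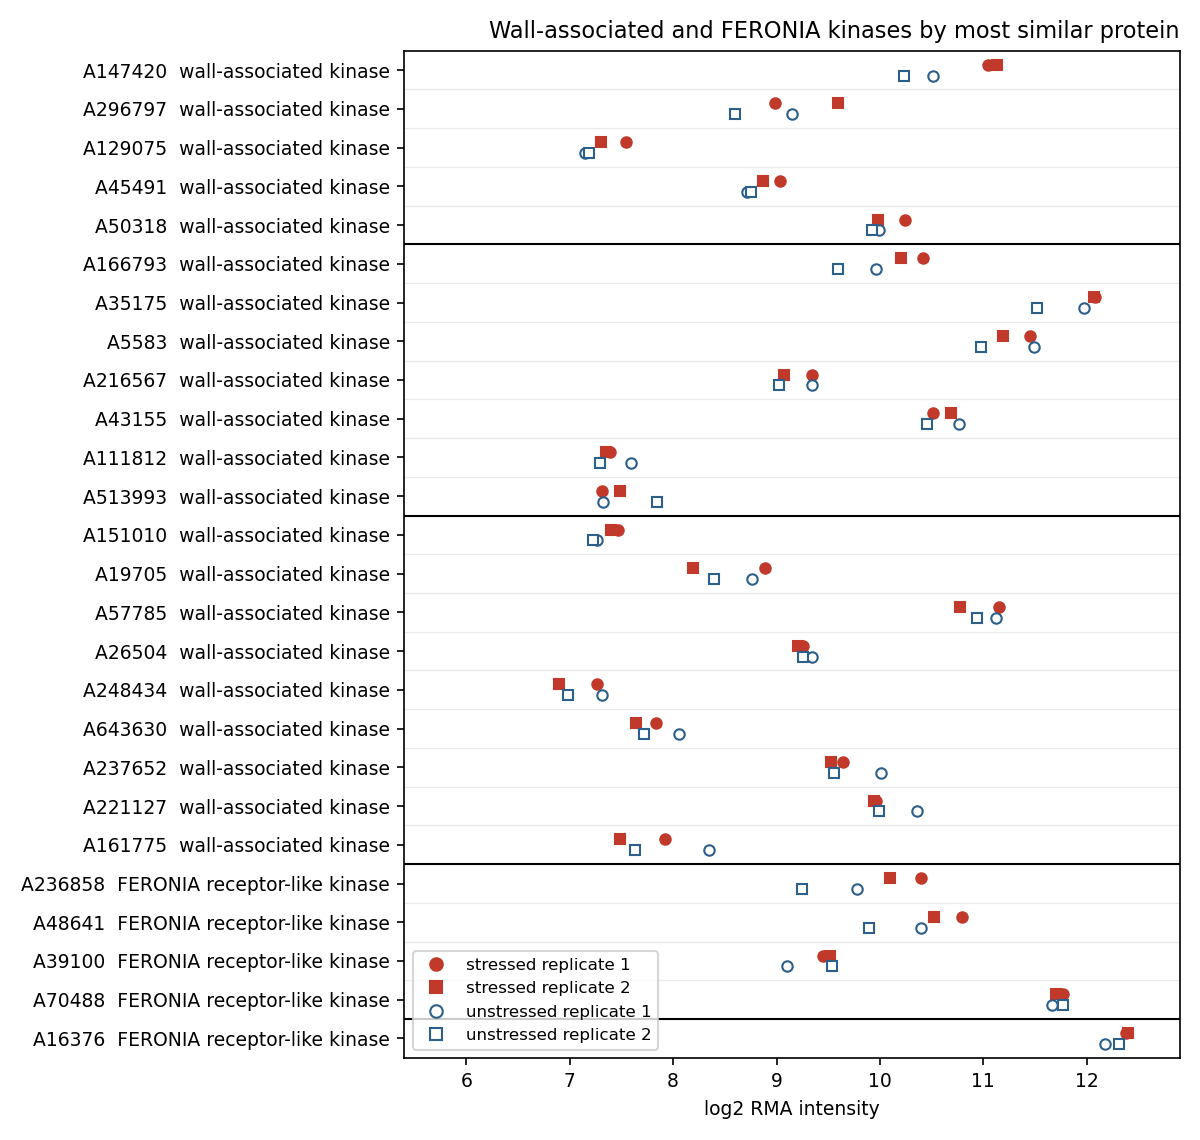
Log2 RMA intensity in the 4 pools is shown for the 21 wall-associated and 5 FERONIA transcripts (filled red stressed, open blue unstressed, circle replicate 1, square replicate 2), with horizontal lines between sets that share a most similar protein. In the top set of 5 all differences are positive, while in the set of 9 headed by A151010 the stressed and unstressed points mostly overlap.

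FERONIA is a receptor kinase with a malectin-like outer domain that monitors the cell wall, and 5 transcripts bore its name. These 5 were singled out after their values were seen. All 5 differences were positive, from 0.02 to 0.73 with a median of 0.16, and the stressed values lay above both unstressed values in 3, against 12.0% of all transcripts. Limma called none, and 1 had an unadjusted p under 0.05. Without unstressed replicate 1 there were 3 positive differences and a median of 0.08, and without unstressed replicate 2 the median was 0.26.

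The largest FERONIA difference was that of A236858, at 10.40 and 10.09 in stressed pools, against 9.78 and 9.25 in unstressed pools. Both stressed pools were higher, but the unstressed pools differed by 0.53 between themselves. Its level was 1.66-fold higher with an interval of 1.11 to 2.49 (limma adjusted p = 0.62), and without unstressed replicate 2 the log2 difference was 0.47. A48641 stood at 10.79 and 10.52 in stressed pools, against 10.39 and 9.89 in unstressed pools (0.51, or 0.26 without unstressed replicate 2, limma adjusted p = 0.97). The third separated transcript, A16376, differed by 0.14, with 12.38 and 12.40 in stressed pools, against 12.18 and 12.31 in unstressed pools. The other two, A39100 (0.16) and A70488 (0.02), had overlapping groups. Of the 5, all but A16376 were matched to 1 protein.

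CLAVATA1 is a leucine-rich repeat receptor that restricts stem cell number in the Arabidopsis shoot tip, and related receptors perceive peptides in many tissues. The 20 transcripts described as CLAVATA1 had a median log2 difference of −0.14, with 17 negative and 3 positive, against 60.8% negative over all transcripts. Limma called none, and 1 had an unadjusted p under 0.05. In the fits that left out 1 array, 15 to 18 of the 20 were negative, and the median was −0.07 without unstressed replicate 2. The stressed values lay below both unstressed values in 9 of the 20 and above in none, against 19.5% and 12.0% of all transcripts. The 20 were matched to 12 proteins, and the 4 matched to 1 of these were all negative, from −0.34 to −0.18.

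A10070 had the largest CLAVATA1 difference, at 9.77 and 9.74 in stressed pools, against 10.06 and 10.28 in unstressed pools. The stressed pools were nearly equal and lay below both unstressed pools, with a log2 difference of −0.41 ± 0.13 (SE, limma adjusted p = 0.68). A299893 followed at 8.19 and 7.98 in stressed pools, against 8.58 and 8.27 in unstressed pools (−0.34, limma adjusted p = 0.99). Here the gap between the groups was smaller than the spread within either group.

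A further 9 transcripts were named by their leucine-rich repeats alone, the repeat that forms the ligand-binding arch of many such receptors. Their median difference was −0.16, with 6 negative and 3 positive, against 60.8% negative over all transcripts. In the fits that left out 1 array 5 to 8 were negative, with a median of −0.05 without stressed replicate 1. The stressed values lay below in 5 and above in none, against 19.5% and 12.0% of all transcripts, and 0 had an unadjusted p under 0.05. A106446 stood at 10.34 and 10.11 in stressed pools, against 10.76 and 10.36 in unstressed pools (−0.33, or −0.13 without unstressed replicate 1). A67364 stood at 10.26 and 10.04 in stressed pools, against 10.53 and 10.32 in unstressed pools (−0.28). In A155151 the values were 11.96 and 12.08 in stressed pools, against 12.24 and 12.26 in unstressed pools (−0.23). All 3 were separated, and each had a limma adjusted p of 0.99.

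**Figure D4:**
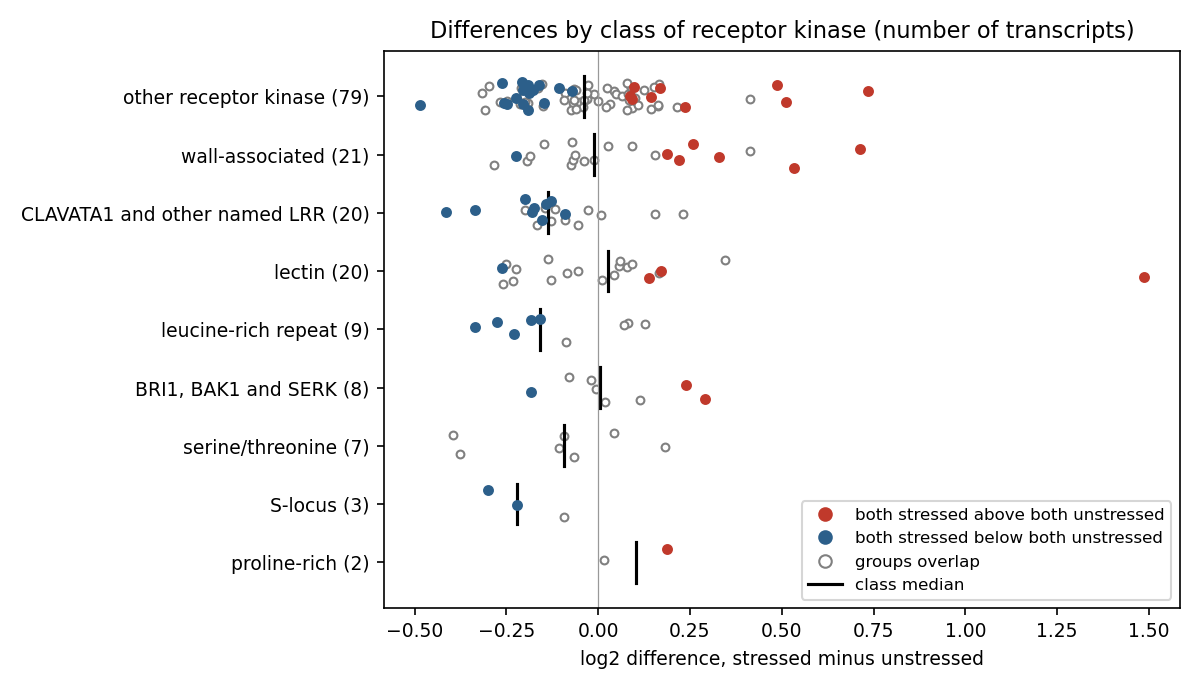
Log2 differences (stressed minus unstressed) of the 169 members are shown by class of description, with the number of transcripts in brackets, filled points for separated groups and a bar at the class median. All filled points of the CLAVATA1 and leucine-rich repeat classes are blue (stressed below unstressed), and class medians lie between −0.22 and 0.10.

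Brassinosteroid receptors and their partners form the growth hormone branch of the family, in which BRI1 binds the hormone and BAK1 and other SERK proteins act as co-receptors. The 8 members of this class had a median difference of 0.01, with 4 positive and 4 negative, and 0 had an unadjusted p under 0.05. A58898, described as a brassinosteroid receptor, stood at 10.19 and 9.91 in stressed pools, against 9.85 and 9.67 in unstressed pools (0.29, limma adjusted p = 0.99). The BRI1-associated kinase A32600, the co-receptor, stood at 12.21 and 11.98 in stressed pools, against 11.83 and 11.88 in unstressed pools (0.24, limma adjusted p = 0.99). Both were separated with the stressed pools above. In the class of 8 the stressed values lay above in these 2 and below in 1, against 12.0% and 19.5% of all transcripts. The 2 transcripts described as somatic embryogenesis receptor kinases (SERK) had negative differences, −0.18 and −0.02. In the 5 transcripts named for the brassinosteroid receptor, differences ran from −0.08 to 0.29.

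The S-locus class, named after the receptors of self-incompatibility in Brassica, held 3 transcripts. All 3 had negative differences (2 of 3 without unstressed replicate 1 or without stressed replicate 2), against 60.8% of all transcripts. The 5 S-locus lectin kinases, of which 4 had positive differences, were counted in the lectin class instead. All 3 transcripts of the S-locus class were among the dimmest 25% of transcripts. A427037 stood at 8.18 and 8.11 in stressed pools, against 8.38 and 8.50 in unstressed pools (−0.30, limma adjusted p = 0.96). A225072 stood at 8.03 and 8.08 in stressed pools, against 8.23 and 8.33 in unstressed pools (−0.22, limma adjusted p = 0.99). These 2 were separated with the stressed pools below, against 19.5% of all transcripts, and a class of 3 is too small to set against that share. The third, A214700, was not separated (−0.09). It was also among the 3 dimmest members, with A70734 (0.10) and A347972 (0.04).

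In the receptor serine/threonine kinases all 7 transcripts had overlapping groups, against 2741 of all 4000 transcripts. The most negative differences were those of A141312 (−0.39) and A401679 (−0.38), in which pools of a group lay as far apart as the groups. A141312 stood at 8.74 and 8.30 in stressed pools, against 9.12 and 8.70 in unstressed pools. PERK1 is a proline-rich receptor kinase that was described in Brassica as wound-responsive. Of the 2 transcripts so described, A32843 stood at 10.43 and 10.61 in stressed pools, against 10.31 and 10.36 in unstressed pools (0.19, limma adjusted p = 0.99), and A68699 was at 0.02 with overlapping groups.

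The remaining 79 receptor kinases, FERONIA included, fell into none of the classes above by their descriptions. Their median difference was −0.04, with 33 positive and 46 negative, against 60.8% negative over all transcripts. The stressed values lay above in 9 and below in 16, against 12.0% and 19.5% of all transcripts. A126119, described as a putative receptor protein kinase, stood at 9.24 and 9.06 in stressed pools, against 8.65 and 8.68 in unstressed pools (0.49 ± 0.13 (SE), limma adjusted p = 0.46). A109308, with the same description, went the other way, at 9.46 and 9.63 in stressed pools, against 9.98 and 10.08 in unstressed pools (−0.48 ± 0.13 (SE), limma adjusted p = 0.48). In both the groups lay further apart than the pools within a group, and neither passed the threshold. Of the 9 transcripts with this description, 8 had negative differences, against 60.8% of all transcripts, and A126119 was the exception.

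The 10 largest negative differences among separated members also included A27073 (−0.26), A321852 (−0.26) and A266345 (−0.25), all described as like a receptor protein kinase. Nodulation receptor kinases, which act in legume roots in the exchange with nitrogen-fixing bacteria, numbered 7 and differed by −0.11 to 0.10. Their groups overlapped in 6, against 2741 of all 4000 transcripts. The 10 transcripts described as stress-induced receptor-like kinases had 7 negative and 3 positive differences, from −0.32 to 0.22, and none had an unadjusted p under 0.05. The members with the highest mean intensities, A7580, A13366 and A39813, differed by −0.09, −0.13 and −0.09, and their groups overlapped.

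**Figure D5:**
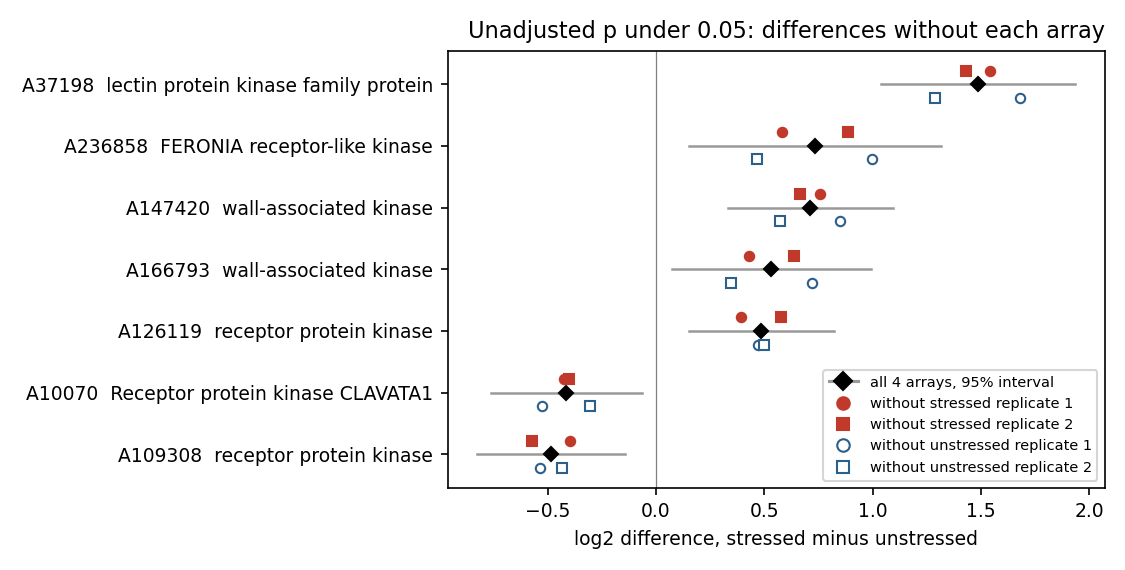
For the 7 members with an unadjusted p under 0.05, the black diamond is the log2 difference over all 4 arrays with limma's 95% confidence interval, and the small points are the differences when 1 array was left out (red without a stressed array, blue without an unstressed array). All 7 had separated groups, so leaving out 1 array could not change their sign. The blue points of A236858 lie furthest apart, at 0.47 and 1.00.

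Differences between pools of the same group were of the same size as those between groups for most members. The unstressed pools differed by more than 0.5 in 24 of the 169 members and the stressed pools in 5, while the group means differed by more than 0.5 in 5. The difference between group means exceeded both differences within groups in 40 members. None of these counts was made over all transcripts, so they cannot be called particular to the receptor kinases. The median absolute log2 difference over the members was 0.16 between the stressed pools and 0.26 between the unstressed pools. Over all transcripts it was 0.14 and 0.21. Across the groups the members' median was 0.17 between the pools of replicate 1 and 0.13 between those of replicate 2. Between pools of unlike number it was 0.20 (stressed 1, unstressed 2) and 0.24 (stressed 2, unstressed 1). The widest gap within a group was that of A12052, described as a homolog of the receptor kinase RK20-1 and singled out after its values were seen. It stood at 10.88 and 10.32 in stressed pools, against 10.83 and 9.54 in unstressed pools, and its difference of 0.41 had a limma adjusted p of 0.99.

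Receptor kinases signal through partners that other transcripts on the array represent, and the counts called in these lists stand against 0.925% of all transcripts called higher and 0.0250% called lower. Of 14 LysM receptor kinases, relatives that perceive chitin and related sugars, 1 rose: A20036 stood at 11.47 and 11.80 in stressed pools, against 9.08 and 9.33 in unstressed pools (limma adjusted p = 0.0087). The 4 calmodulin-binding receptor-like transcripts had positive differences with a median of 0.09, and 0 had an unadjusted p under 0.05. In the MAP kinase cascade, which relays receptor signals to the nucleus, 2 of 20 rose and none fell. One was A15040, at 13.34 and 13.47 in stressed pools, against 11.18 and 11.45 in unstressed pools (4.26-fold higher, 3.27 to 5.55, limma adjusted p = 0.0087), and the other was A23526 (4.19-fold higher, adjusted p = 0.024). In both the groups were far apart.

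Among 80 transcripts described as calcium sensors, calcium-dependent kinases or calmodulin-binding proteins, 2 rose and none fell (2.50%), at 2.95-fold (A17246) and 2.56-fold (A16350) higher. The 80 include the 4 calmodulin-binding receptor-like transcripts given above. Of 21 protein phosphatases 2C, a class that includes phosphatases that inactivate MAP kinases in Arabidopsis, 2 rose and none fell. They were A127474 (8.87-fold higher) and A42479, the second at 12.41 and 12.64 in stressed pools, against 10.24 and 10.29 in unstressed pools (4.79-fold higher, limma adjusted p = 0.0061). Of 30 WRKY factors, transcription factors often switched on by receptor signalling, 7 rose and none fell. The largest were A406475 (8.42-fold higher) and A357137 (WRKY27, 8.30-fold), followed by A387921 (WRKY20, 6.26-fold) and A54103 (5.54-fold). The smallest were A10271 (WRKY27, 2.68-fold), A12297 (WRKY23, 2.54-fold) and A23796 (WRKY39, 2.26-fold), and limma adjusted p-values of the 7 ran from 0.0035 to 0.039. These are lists chosen with earlier results of the same arrays known and are not independent evidence.

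Of 92 intracellular immune receptors, 2 rose (A519411 and A209791, 2.17%) and none fell. The respiratory burst oxidases, which make reactive oxygen at the plasma membrane, numbered 6, all with positive differences from 0.04 to 0.57 (5 of 6 in each fit that left out 1 array). Limma called none of them, and 1 had an unadjusted p under 0.05. Of the 49 pectin enzymes, which shape the polymer bound by wall-associated kinases, limma called none either, 3 had an unadjusted p under 0.05 (6.12%, against 5.50% of all transcripts) and the median difference was −0.07. The search terms for peptide ligands and for 14-3-3 proteins found 0 transcripts. Limma called 0 transcripts of the 5 marker lists for leaf, xylem, root and nodule, ribosome and cell division. An unadjusted p under 0.05 was found in 0 of 2, 3 of 44, 1 of 6, 2 of 42 and 0 of 62. The share over all transcripts was 5.50%, and the lists of 2 and 6 are too small to set against it. Transcripts described by the words ribosomal protein, among them the S6 kinase A132084, which is not a part of the ribosome, differed by a median of 0.11 with 34 of 42 positive. They took 2.19% and 2.27% of the summed intensity in stressed pools, against 1.81% and 2.26% in unstressed pools. Their part in the differences of the receptor kinases was not tested. The 169 receptor kinases took 1.94% and 1.93% in stressed pools, against 1.96% and 1.91% in unstressed pools.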

How the data were processed

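The authors deposited 1 linear intensity for each transcript on each array, summarised from as many as 18 probes according to the file headers. RMA is named, with no version, in the submitters' processing notes. RMA corrects background, brings arrays to a common distribution and summarises probes. A shift common to most transcripts would be removed, and dim differences may be understated. No detection call or probe sequence was used, and the number of arrays limits the precision. Intensities were taken to log2 with nothing added or filtered. Stressed and unstressed pools were compared with lmFit and eBayes of limma 3.58.1 (R 4.3.3), with 2 residual and 2.93 prior degrees of freedom, and p-values were adjusted by Benjamini-Hochberg over all 4000 transcripts. These p-values measure the spread between pools.

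Members, classes and lists were chosen with earlier results of these data known. Members were named if called, if among the 10 largest differences in each direction with separated groups, if wall-associated, if among the 3 brightest or 3 dimmest, or if among the 2 smallest p-values of a class. From each other list, called transcripts and the 3 smallest p-values qualified. The letters CLE and TIR were matched as whole words. Alternatives were other normalizations, 50 added to intensities, leaving out the dimmest 25%, an intensity trend, the deposited series table, leaving out each array, and the replicate number as a block.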

Additional observations from a re-analysis of the deposited data

How the results depend on the processing

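The number of receptor kinase members called, 1 over all arrays, was 0 after quantile normalization, 0 after centring arrays on their median and 0 with 50 added to intensities, and it was 0 to 1 over the fits that left out 1 array, where limma called 8 to 27 of all transcripts in place of 38. Members with separated groups numbered 96 to 130 in those fits in place of 56, with 38 to 57 above in place of 21 and 53 to 73 below in place of 35, because 1 value is more easily outside 2 others. Same-numbered stressed and unstressed pools deviated together from their group means (r = 0.51 across the members and across all transcripts, which are not independent replicates). The labels do not say that the number marks a shared batch, and with 2 numbers the pairing could not be established. With the replicate block, limma called 139 of all transcripts and 4 members, A37198 (adjusted p = 6.8e-06), A236858 (0.0048), A147420 (0.0077) and A166793 (0.049), all higher in stressed pools. The block leaves fewer residual degrees of freedom than the main fit, so these p-values lean more on the variance prior shared across transcripts. They cannot be read as stronger evidence than those of the main fit.

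Of the 40 members with differences given one by one, 32 kept their sign under every alternative run. Many of the 40 were named because their groups were separated, and such members cannot change sign when 1 array is left out. Of these 32, 20 moved by over 1.5 times when 1 array was left out. Of the 13 wall-associated kinases given as a range, 11 changed sign in such a fit and the other two, A26504 and A50318, moved by over 1.5 times. The PERK1 transcript A68699 was at −0.0099 after quantile normalization. Over the fits that left out 1 array, differences ran from −0.11 to 0.15 for A68699, −0.26 to 0.0724 for A39813, −0.28 to 0.02 for A13366, −0.27 to 0.0821 for A214700, −0.13 to 0.22 for A347972, −0.0507 to 0.38 for A39100, −0.0287 to 0.072 for A70488 and −0.24 to 1.06 for A12052. The cause was not tested. All members are described as kinases, so restricting them to kinases left every count as it was. The series table gave the same values as the array files.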
